A study of Rattus norvegicus with 14 samples.

Results

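The genes of the rat major histocompatibility complex, named RT1, were described here together with the genes that build and load their products. Every row of the gene tables whose symbol starts with RT1-, or is B2m, Cd74, Ciita, Tap1, Tap2 or Tapbp, was taken, which gave 40 of 30562 rows. Of these, 27 rows belonged to the class I side, 23 of them RT1 rows, and 13 to the class II side, 11 of them RT1 rows. RNA was measured in dorsal root ganglia, the clusters of sensory nerve cell bodies beside the spinal cord, taken from lumbar levels 2 to 5 of 7 wild-type male rats. In one hindlimb of each rat a leg muscle, the extensor digitorum longus, had been grafted to the saphenous nerve, which carries sensation from the inner leg, and the other hindlimb had no operation. The ganglia of the grafted limb are called surgical and those of the unoperated limb of the same rat control. There were 4 surgical and 4 control libraries at 8 weeks (rats C, D, G and H), and 3 surgical and 3 control libraries at 6 weeks (rats A, B and E). The control ganglia thus came from operated animals, no library came from a rat without a graft, and the labels gave no strain, RT1 haplotype or age.

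Class I molecules carry peptides made inside a cell to its surface, where CD8 T cells and natural killer cells read them. Each consists of a heavy chain encoded by an RT1 gene and the light chain beta-2 microglobulin, and it is loaded in the endoplasmic reticulum with peptides that the Tap1 and Tap2 transporter brings in and that tapasin (Tapbp) helps to place. Class II molecules present peptides from material taken up by macrophages, dendritic cells and B cells to CD4 T cells. They are held by the invariant chain Cd74 until the DM molecule exchanges its remnant for a peptide, and the regulator Ciita switches their genes on, in many cells after interferon gamma.

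The promoters of the 2 classes differ in the short motifs through which they are known to be switched on, and those of 7 members are printed here so that the classes can be compared. They come from RefSeq, build GRCr8, where 32 of the 38 member symbols had a promoter of 250 bases before to 50 bases after the annotated start. Each is written 5′ to 3′ on the strand of the gene and upstream of its start, except that of RT1-A1, which runs 10 bases past the start, with motif matches in capitals.
RT1-Da: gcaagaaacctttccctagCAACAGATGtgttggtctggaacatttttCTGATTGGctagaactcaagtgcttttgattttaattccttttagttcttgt
RT1-Db1: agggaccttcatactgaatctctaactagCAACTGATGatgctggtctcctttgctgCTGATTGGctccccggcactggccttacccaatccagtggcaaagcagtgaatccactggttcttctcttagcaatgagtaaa
RT1-Ba: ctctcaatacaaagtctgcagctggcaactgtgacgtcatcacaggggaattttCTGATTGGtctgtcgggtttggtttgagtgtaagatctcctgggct
RT1-A2: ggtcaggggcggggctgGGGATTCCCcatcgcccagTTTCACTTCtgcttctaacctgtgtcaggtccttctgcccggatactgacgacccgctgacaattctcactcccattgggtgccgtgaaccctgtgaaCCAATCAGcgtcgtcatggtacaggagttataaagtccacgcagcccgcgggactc
RT1-A1: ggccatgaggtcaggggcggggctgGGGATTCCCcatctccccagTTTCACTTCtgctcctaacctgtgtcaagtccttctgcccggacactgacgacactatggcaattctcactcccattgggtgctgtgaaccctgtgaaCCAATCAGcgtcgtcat
RT1-CE16: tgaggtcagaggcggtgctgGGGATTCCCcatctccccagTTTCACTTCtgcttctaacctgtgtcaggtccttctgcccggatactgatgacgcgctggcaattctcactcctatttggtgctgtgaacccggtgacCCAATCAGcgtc
Tap1: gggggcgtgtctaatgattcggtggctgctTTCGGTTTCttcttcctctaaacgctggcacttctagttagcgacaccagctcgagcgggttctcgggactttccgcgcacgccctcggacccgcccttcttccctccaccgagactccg

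The class II stretches lay at chr20:4515315-4515414 on the plus strand (RT1-Da), chr20:4560163-4560302 on the minus strand (RT1-Db1) and chr20:4576957-4577056 on the plus strand (RT1-Ba). The class I stretches lay at chr20:4872681-4872870 and chr20:4907059-4907218 on the plus strand (RT1-A2 and RT1-A1), and at chr20:3265444-3265593 and chr20:4668544-4668693 on the minus strand (RT1-CE16 and Tap1). Motifs were searched on both strands over the whole window. The Y box CTGATTGG, bound by the factor NF-Y, was in 7 of 10 class II and 7 of 22 class I promoters, against 3.5% of all 33469 promoters. The X box, the class II element bound by the RFX complex, was searched by its core CAACNGATG and was in 4 of 10 class II promoters (RT1-Da, RT1-Db1, RT1-Db2 and RT1-DOb) and 0 of 22 class I promoters, against 0.586% of all. The core of the class I enhancer A, GGGATTCCC, was in the promoters of RT1-A2, RT1-A1 and RT1-CE16 and in 0 class II promoters, against 0.365% of all. The class I interferon-response motif TTTCACTTC was in 7 class I and 0 class II promoters, against 0.469% of all. A looser interferon-response motif, GAAANNGAA, was in 7 class I promoters, among them B2m, Tap1, Tap2 and Tapbp, and in 0 class II promoters, against 9.71% of all. In the 3 RT1 class I stretches shown, enhancer A, the TTTCACTTC motif and the Y box stood in the same order. In RT1-Da and RT1-Db1 the X box preceded the Y box, while in RT1-Ba the letters searched gave a Y box without an X box match. The interferon-response motifs overlapped each other in the Tap2 promoter. A match to these letters is a description of the reference sequence and says nothing of binding in these ganglia.

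Levels are given in TPM, the deposited measure of transcript abundance that accounts for transcript length and for the size of a library. Total estimated counts were 18489118 to 28237574 per library. Some libraries stood apart in tissue content. The skeletal muscle list, of which 10 of 12 genes had a row, summed to 26860 TPM in the surgical library of rat C, 1229 TPM in the surgical library of rat E and 5192 TPM in the control library of rat H, against 68.2 to 282 TPM in the other 11. The spinal cord and central glia list reached 997 TPM in the surgical library of rat B, against 21.97 to 64.2 TPM elsewhere. Blood content differed too. Haemoglobin genes summed to 120724 to 163008 TPM in both libraries of rats A and B and the surgical library of rat C. Elsewhere they summed to 26630 to 102859 TPM. Sensory neuron markers marked every library as ganglion, with sums of 1854 TPM (surgical, rat A) to 27758 TPM (surgical, rat H). RT1 class I genes are near-identical in long stretches and are known to differ between rat strains in sequence and number, so Salmon, which assigned the reads, may have split reads among neighbouring rows. Single class I rows are therefore uncertain, and sums over each class are given beside them.

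The side of the graft did not separate either class. No member passed the test, and neither did any other gene, and the class totals of the sides overlapped at both times. B2m (mean 541 TPM) and Cd74 (mean 193 TPM) were the most abundant members, the class I heavy chains were spread over several rows, and the class II chains were led by RT1-Ba, RT1-Da and RT1-Db1. Within single rats the class II genes differed between the sides, but in opposite directions in different rats.

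Summed over its 11 RT1 rows, class II was at 454, 246 and 254 TPM in the 6-week surgical libraries of rats A, B and E, against 358, 570.2 and 334 TPM in their control libraries. At 8 weeks the class II sum was 349, 214, 227 and 183 TPM in the surgical libraries of rats C, D, G and H, against 248, 187, 247 and 346 TPM in their control libraries. It was thus higher on the surgical side in rats A, C and D and lower in rats B, E, G and H. The group means were 318 ± 118 TPM (surgical) and 421 ± 130 TPM (control) at 6 weeks (SD, n = 3 each), and 243 ± 73.0 TPM (surgical) and 257 ± 65.8 TPM (control) at 8 weeks (SD, n = 4 each).

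Summed over its 23 RT1 rows, class I was at 218, 206 and 164 TPM in the 6-week surgical libraries of rats A, B and E, against 163, 217 and 172 TPM in their control libraries. At 8 weeks the class I sum was 286, 178, 189.6 and 173 TPM in the surgical libraries of rats C, D, G and H, against 190.5, 207, 216 and 217 TPM in their control libraries. Rats A and C were higher on the surgical side and the other 5 lower. The group means were 196 ± 28.2 TPM (surgical) and 184 ± 29.1 TPM (control) at 6 weeks (SD, n = 3 each), and 207 ± 53.3 TPM (surgical) and 208 ± 12.4 TPM (control) at 8 weeks (SD, n = 4 each). In whole ganglia, fewer cells of a type and less RNA per cell cannot be told apart.

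**Figure D1:**
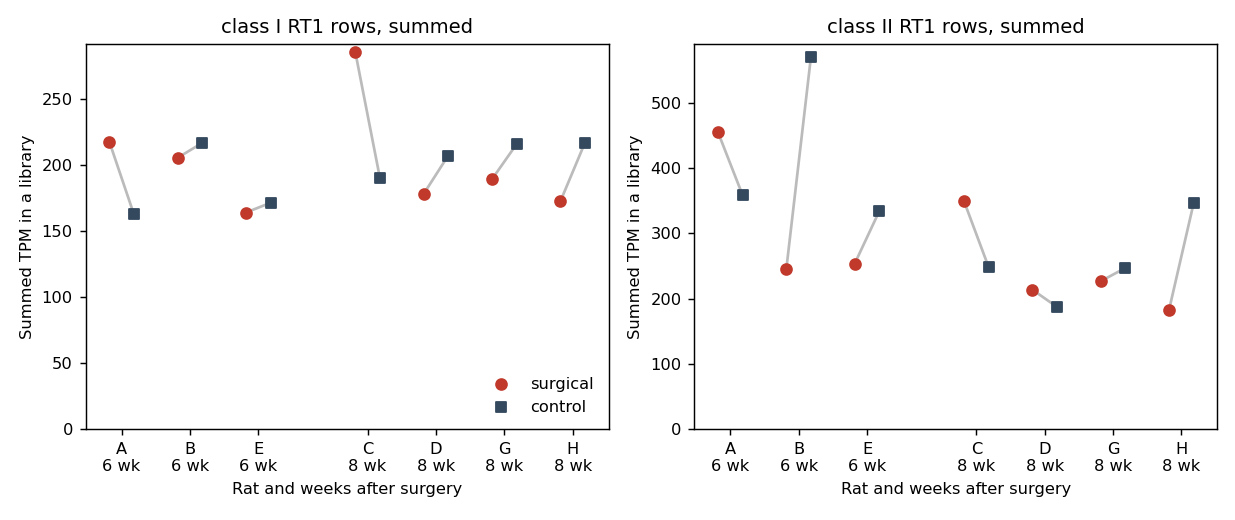
Summed TPM of the 23 class I RT1 rows (left) and the 11 class II RT1 rows (right) in each rat, with the surgical library as a red circle and the control library as a dark square, joined by a line; the vertical axes start at 0. The class II lines slope both ways, with the widest gap in rat B (246 TPM surgical, 570.2 TPM control), and the highest class I value is the surgical library of rat C (286 TPM).

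Among the class I members, the light chain was the most abundant. B2m had 539, 513 and 486 TPM in the 6-week surgical libraries of rats A, B and E, against 541, 668 and 466 TPM in their control libraries. At 8 weeks B2m had 437, 438, 514 and 534 TPM in the surgical libraries of rats C, D, G and H, against 596, 498, 593 and 748 TPM in their control libraries. It was lower on the surgical side in 6 of 7 rats, all but rat E, and the groups overlapped at both times. The group means were 513 ± 26.1 TPM (surgical) and 559 ± 102 TPM (control) at 6 weeks (SD, n = 3 each), and 481 ± 50.5 TPM (surgical) and 609 ± 103 TPM (control) at 8 weeks (SD, n = 4 each).

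The peptide transporter and tapasin averaged 9.72 TPM (Tap1), 14.8 TPM (Tap2) and 21.3 TPM (Tapbp). Tap1 had 9.47, 12.2 and 7.43 TPM in the 6-week surgical libraries of rats A, B and E, against 9.69, 11.4 and 6.53 TPM in their control libraries. At 8 weeks Tap1 had 19.0, 7.91, 10.1 and 6.79 TPM in the surgical libraries of rats C, D, G and H, against 7.42, 9.74, 8.30 and 10.1 TPM in their control libraries. Tap2 had 16.2, 18.2 and 10.1 TPM in the 6-week surgical libraries of rats A, B and E, against 15.1, 16.8 and 11.5 TPM in their control libraries. At 8 weeks Tap2 had 27.4, 12.0, 13.1 and 12.0 TPM in the surgical libraries of rats C, D, G and H, against 10.9, 13.3, 12.9 and 17.4 TPM in their control libraries. The surgical library of rat C held the highest Tap1 and Tap2 levels of all 14, and for each gene 4 of 7 rats were higher on the surgical side. Tapbp had 13.9, 18.9 and 19.0 TPM in the 6-week surgical libraries of rats A, B and E, against 15.8, 15.3 and 16.1 TPM in their control libraries. At 8 weeks Tapbp had 34.8, 22.1, 22.7 and 22.5 TPM in the surgical libraries of rats C, D, G and H, against 19.6, 27.9, 28.3 and 21.9 TPM in their control libraries. Tapbp exceeded its control level in 4 of 7 rats and was again highest in the surgical library of rat C.

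Of the 23 class I heavy chain rows, the nonclassical RT1-T24-3 had the highest level per length, with a mean of 35.3 TPM over the 14 libraries. RT1-T24-3 had 55.5, 38.8 and 26.9 TPM in the 6-week surgical libraries of rats A, B and E, against 32.5, 40.9 and 30.4 TPM in their control libraries. At 8 weeks RT1-T24-3 had 50.1, 32.1, 29.6 and 27.6 TPM in the surgical libraries of rats C, D, G and H, against 31.0, 38.4, 28.7 and 32.0 TPM in their control libraries. It was higher on the surgical side in rats A, C and G only. RT1-T24-4 had 24.9, 35.4 and 22.9 TPM in the 6-week surgical libraries of rats A, B and E, against 16.3, 35.5 and 24.2 TPM in their control libraries. At 8 weeks RT1-T24-4 had 42.9, 17.5, 30.2 and 23.8 TPM in the surgical libraries of rats C, D, G and H, against 23.4, 22.1, 29.0 and 36.7 TPM in their control libraries. RT1-S3 had 28.1, 28.7 and 22.1 TPM in the 6-week surgical libraries of rats A, B and E, against 19.3, 28.3 and 24.0 TPM in their control libraries. At 8 weeks RT1-S3 had 38.0, 13.7, 27.5 and 24.2 TPM in the surgical libraries of rats C, D, G and H, against 22.4, 18.4, 26.04 and 30.4 TPM in their control libraries. RT1-T24-4 exceeded its control level in 3 of 7 rats and RT1-S3, also nonclassical, in 4 of 7, with the same wide gap in rat C. Both overlapped between sides at both times.

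RT1-A2, a classical heavy chain of the RT1-A region, and the first RT1-CE16 row were among the members that differed most between rats relative to the sides. RT1-CE16 (ENSRNOG00000065254) had 9.62, 28.9 and 22.5 TPM in the 6-week surgical libraries of rats A, B and E, against 7.83, 33.1 and 21.4 TPM in their control libraries. At 8 weeks RT1-CE16 (ENSRNOG00000065254) had 51.4, 8.65, 24.5 and 22.1 TPM in the surgical libraries of rats C, D, G and H, against 35.2, 10.5, 33.6 and 29.7 TPM in their control libraries. Both libraries of rats A and D lay below both libraries of every other rat, whichever side they came from. RT1-A2 had 31.4, 14.7 and 17.1 TPM in the 6-week surgical libraries of rats A, B and E, against 27.5, 19.7 and 15.6 TPM in their control libraries. At 8 weeks RT1-A2 had 13.4, 25.3, 17.6 and 15.9 TPM in the surgical libraries of rats C, D, G and H, against 11.9, 31.8, 20.4 and 20.1 TPM in their control libraries. RT1-A2 ran the other way, with its 4 highest levels in the libraries of rats A and D. RT1-M3-1 had 9.23, 13.1 and 15.3 TPM in the 6-week surgical libraries of rats A, B and E, against 11.3, 11.5 and 18.2 TPM in their control libraries. At 8 weeks RT1-M3-1 had 17.5, 21.1, 17.8 and 19.7 TPM in the surgical libraries of rats C, D, G and H, against 24.1, 20.05, 29.1 and 19.0 TPM in their control libraries. RT1-M3-1, whose mouse counterpart presents N-formylated peptides, was lower on the surgical side in 4 of 7 rats.

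The other 17 class I RT1 rows averaged from 0.0470 TPM (RT1-M5) to 16.3 TPM (RT1-A1). After RT1-A1, the second RT1-CE16 row (ENSRNOG00000047706, 11.0 TPM), RT1-N3 (6.65 TPM), RT1-CE14 (4.07 TPM), RT1-O1 (3.31 TPM), RT1-N2 (3.29 TPM) and RT1-CE3 (2.66 TPM) were the only ones above 1 TPM. The remaining 10 averaged 0.881 TPM or less.

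On the class II side, the invariant chain was the most abundant. Cd74 had 268, 147 and 163 TPM in the 6-week surgical libraries of rats A, B and E, against 237, 331 and 240.4 TPM in their control libraries. At 8 weeks Cd74 had 219, 158, 141 and 117 TPM in the surgical libraries of rats C, D, G and H, against 156, 133, 157 and 230.3 TPM in their control libraries. It was higher on the surgical side in rats A, C and D, as the summed class II chains were. The group means were 193 ± 65.8 TPM (surgical) and 269 ± 53.0 TPM (control) at 6 weeks (SD, n = 3 each), and 158 ± 43.7 TPM (surgical) and 169 ± 42.3 TPM (control) at 8 weeks (SD, n = 4 each). Ciita had 1.18, 0.881 and 0.947 TPM in the 6-week surgical libraries of rats A, B and E, against 1.05, 1.31 and 0.918 TPM in their control libraries. At 8 weeks Ciita had 1.16, 0.731, 0.824 and 0.755 TPM in the surgical libraries of rats C, D, G and H, against 1.03, 1.00, 1.01 and 1.05 TPM in their control libraries. The regulator lay between 0.731 and 1.31 TPM in every library, and was higher on the surgical side in rats A, C and E.

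The RT1-B molecule, the rat counterpart of human HLA-DQ, is built from the Ba alpha and Bb beta chains. RT1-Ba had 131, 57.4 and 63.9 TPM in the 6-week surgical libraries of rats A, B and E, against 107, 163 and 102 TPM in their control libraries. At 8 weeks RT1-Ba had 71.7, 50.4, 50.8 and 49.2 TPM in the surgical libraries of rats C, D, G and H, against 61.7, 37.8, 68.3 and 91.1 TPM in their control libraries. RT1-Bb had 28.1, 17.6 and 15.1 TPM in the 6-week surgical libraries of rats A, B and E, against 19.9, 49.5 and 22.1 TPM in their control libraries. At 8 weeks RT1-Bb had 36.7, 14.2, 14.1 and 11.9 TPM in the surgical libraries of rats C, D, G and H, against 20.9, 10.2, 19.8 and 21.5 TPM in their control libraries. Both chains were higher on the surgical side in rats A, C and D, and the control library of rat B held the highest level of each. The RT1-D molecule, the counterpart of HLA-DR, pairs the Da alpha chain with the Db1 beta chain. RT1-Da had 123, 50.9 and 71.0 TPM in the 6-week surgical libraries of rats A, B and E, against 89.6, 143 and 84.3 TPM in their control libraries. At 8 weeks RT1-Da had 75.6, 58.1, 57.6 and 47.3 TPM in the surgical libraries of rats C, D, G and H, against 65.5, 40.0, 64.2 and 99.6 TPM in their control libraries. RT1-Db1 had 78.4, 36.4 and 48.4 TPM in the 6-week surgical libraries of rats A, B and E, against 60.0, 117 and 62.7 TPM in their control libraries. At 8 weeks RT1-Db1 had 68.3, 42.3, 35.0 and 31.0 TPM in the surgical libraries of rats C, D, G and H, against 52.3, 32.1, 45.0 and 55.3 TPM in their control libraries. Both chains again had their highest level in the control library of rat B, and both were higher on the surgical side in the same 3 rats.

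The DM chains, which exchange the peptides, averaged 33.0 TPM (RT1-DMa) and 28.5 TPM (RT1-DMb), below the RT1-D chains. RT1-DMa had 45.8, 38.9 and 26.8 TPM in the 6-week surgical libraries of rats A, B and E, against 42.5, 47.7 and 31.6 TPM in their control libraries. At 8 weeks RT1-DMa had 34.9, 25.6, 33.1 and 20.6 TPM in the surgical libraries of rats C, D, G and H, against 22.2, 31.9, 23.5 and 36.7 TPM in their control libraries. RT1-DMb had 36.0, 37.4 and 20.8 TPM in the 6-week surgical libraries of rats A, B and E, against 30.3, 39.1 and 23.0 TPM in their control libraries. At 8 weeks RT1-DMb had 53.2, 15.4, 27.9 and 17.7 TPM in the surgical libraries of rats C, D, G and H, against 19.2, 27.98, 17.4 and 33.1 TPM in their control libraries. Rats A, C and G were higher on the surgical side for both chains, and rat D, higher for the RT1-B and RT1-D chains, was lower for both. The other class II rows were lower. RT1-Db2, a further beta chain, averaged 4.18 TPM, the DM modulators RT1-DOa and RT1-DOb averaged 2.16 and 1.64 TPM, and RT1-Hb-ps1 and RT1-Ha averaged 0.164 and 0.0949 TPM.

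The comparison of the sides asked whether grafting the nerve to muscle changed these genes in the ganglia upstream. Of the 40 rows, 33 passed the filter on low counts (22 class I and 11 class II), and the other 7 had at most 30 counts in any library and a mean of 0.185 TPM or less. With both times together and the rat as a block, edgeR's quasi-likelihood test called 0 of 33 members, against 0% of 17035 genes tested, with an adjusted p of 1 for each member. At an unadjusted p under 0.05 there were 0 members, against 2.42% of all genes. The alternatives of DESeq2, with 6 genes called, and limma, with 0, also called 0 members. The member nearest to the threshold was RT1-M3-1, with a log2 difference of -0.23 (SE 0.11, adjusted p = 1 by edgeR). It was lower in 4 of 7 rats in TPM, but the test used scaled counts. In rats B and H, higher on the surgical side in TPM, its surgical counts were lower, in libraries with more total counts. They were 307, against 349 (control), in rat B and 386, against 422 (control), in rat H.

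The class I members were centred on no difference and the class II members lay slightly below it. The median log2 difference, surgical over control, was 0.01 over the 22 class I members (11 above 0) and -0.20 over the 11 class II members (10 below 0), beside 0.00 over all genes, of which 49.9% were below 0. The class II median was 0.05 without rat B and -0.41 without rat C. Single log2 differences were -0.25 (SE 0.18) for B2m and 0.11 (SE 0.28), 0.06 (SE 0.27) and 0.04 (SE 0.16) for Tap1, Tap2 and Tapbp. Those of RT1-Ba, RT1-Da, RT1-Db1 and RT1-Bb were -0.33 (SE 0.33), -0.25 (SE 0.35), -0.27 (SE 0.38) and -0.20 (SE 0.38). Cd74 was at -0.28 (SE 0.33), Ciita at -0.18 (SE 0.23), RT1-DMa at -0.08 (SE 0.26) and RT1-DMb at 0.03 (SE 0.36). For each of these except B2m the SE exceeded the difference.

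At 6 weeks the class II median lay below 0, and without rat B it did not. The test called 0 of 33 members, against 0% of all genes (adjusted p = 0.999 by edgeR for each member), and at an unadjusted p under 0.05 there were 0 members, against 3.21% of genes. DESeq2 called 44 genes and 0 members. The median log2 difference was -0.62 over the class II members, with 11 of 11 below 0, and -0.15 over the class I members, with 20 of 22 below 0, beside -0.01 over all genes, of which 51% were below 0. Without rat B the medians were 0.05 for class II and 0.17 for class I. In that rat alone, the median difference in log2 CPM, counts scaled to the size of a library, was -1.75 for class II (0 of 11 higher) and -0.56 for class I. The same median was 0.37 for class II in rat A (11 of 11 higher) and -0.34 in rat E (0 of 11 higher). On the TPM scale the log2 ratio in rat B was -0.08 for summed class I and -1.21 for summed class II. The 6-week mean of the class I sums was higher on the surgical side in TPM (196 TPM, against 184 TPM). The surgical library of rat B is the one with the spinal cord markers, 997 TPM against 29.6 TPM in its control library. Its sensory neuron markers summed to 10215 TPM, against 2894 TPM in its control library, and its macrophage markers to 4374 TPM, against 3837 TPM, a sum made up mostly of Lyz2. The mean log2 CPM of the 15 macrophage markers was 5.75 in this library, against 6.36 in its control library. Its dendritic cell markers summed to 54.8 TPM, against 76.2 TPM. Its B cell markers summed to 188 TPM, against 147 TPM, and its T and NK cell markers to 88.1 TPM, against 60.6 TPM. In mean log2 CPM the B cell markers were at 3.39, against 3.46, and the T and NK cell markers at 1.14, against 1.32. The sides of rat A were also unlike, with sensory neuron markers at 1854 TPM (surgical) and 6694 TPM (control). The part of these lists in the result was not tested.

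At 8 weeks the rats again differed in direction. The test called 0 of 33 members, against 0% of all genes (adjusted p = 1 by edgeR for each member), and 0 members at an unadjusted p under 0.05, against 1.06% of genes; DESeq2 called 4 genes and 0 members. The median log2 difference was 0.05 over class II and 0.13 over class I, beside 0.01 over all genes. Without rat C these medians were -0.25 and -0.23. In log2 CPM, the class II median of single rats was 0.94 in rat C (10 of 11 higher), 0.35 in rat D (6 of 11), 0.01 in rat G (7 of 11) and -1.02 in rat H (0 of 11). The class I median was 1.12 in rat C (20 of 22 higher), -0.14 in rat D, -0.03 in rat G and -0.58 in rat H. On the TPM scale the excess in rat C was smaller, with a log2 ratio of 0.59 for summed class I and 0.49 for summed class II. Its surgical library is the one with 26860 TPM of skeletal muscle markers, and it held 404 TPM of B cell markers, against 69.8 TPM in its control library, and 3291 TPM of macrophage markers, against 866 TPM. Haemoglobin genes summed to 163008 TPM in this library, against 35025 TPM in the control library of rat C. Dendritic cell markers went the other way in rat C, with 44.4 TPM in the surgical and 66.7 TPM in the control library. Their mean log2 CPM was 1.15 (surgical) and 1.14 (control). The sides of rat H differed in content too. Its sensory neuron markers summed to 27758 TPM (surgical) and 13689 TPM (control), and its skeletal muscle markers to 267 TPM (surgical) and 5192 TPM (control). Its macrophage markers summed to 1276 TPM (surgical) and 2242 TPM (control). The part of these lists in the 8-week result was not tested.

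Whether the side difference itself differed between the times was tested directly. The test of the difference, 8 minus 6 weeks, called 0 of 33 members, against 0% of genes (adjusted p = 1 by edgeR), and 0 at an unadjusted p under 0.05, against 1.48%; DESeq2 called 5 genes and 0 members. The median was 0.51 over class II (11 of 11 above 0) and 0.20 over class I (20 of 22 above 0), beside 0.05 over all genes, of which 54.7% were above 0. Without rat B these were 0.08 and -0.05.

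**Figure D2:**
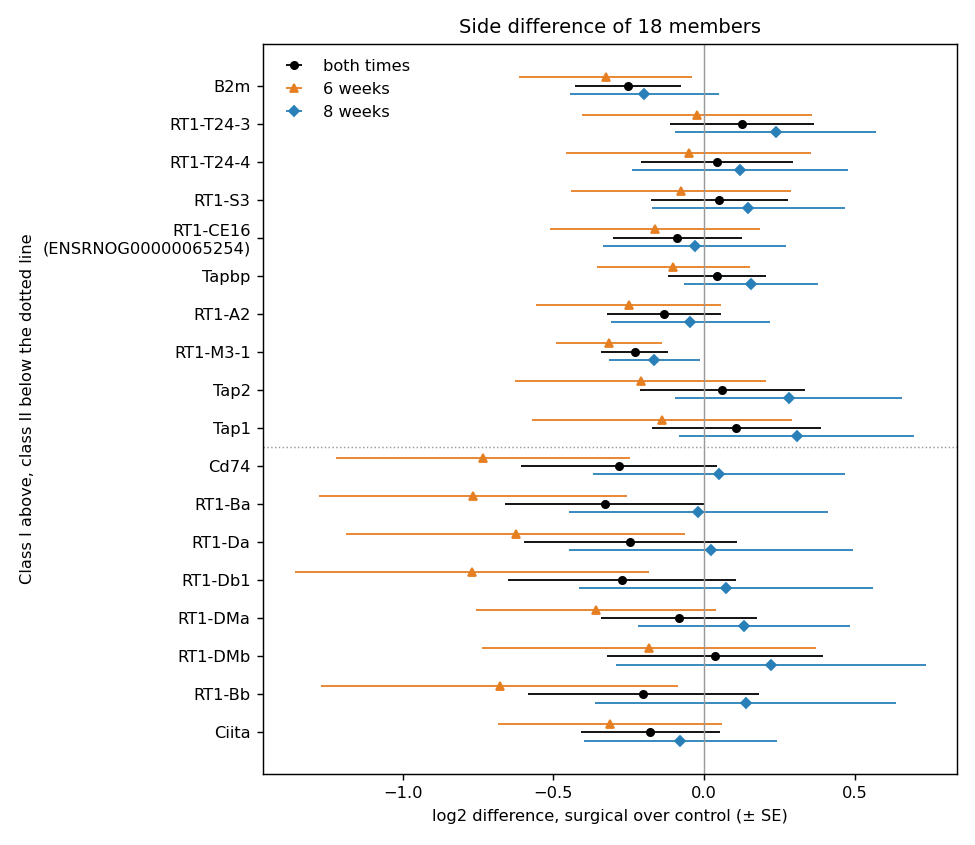
Log2 difference, surgical over control, of 18 members, with bars of 1 SE from edgeR, for both times together (black circles, n = 7 rats), 6 weeks (orange triangles, n = 3) and 8 weeks (blue diamonds, n = 4); class I is above the dotted line and class II below it. At 6 weeks the RT1-B, RT1-D and Cd74 points lie furthest left, RT1-Db1 at -0.77 (SE 0.59), and at 8 weeks they lie near 0, RT1-Db1 at 0.07 (SE 0.49).

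The genes around these pathways were not called either. Over both times, 0 of 12 tested genes of class I loading and peptide supply, 0 of 13 of class II processing and regulation, 0 of 9 of upstream interferon signalling and 0 of 4 of co-stimulation passed the test, with median log2 differences of -0.01, 0.09, 0.09 and 0.27. Ifng itself was at 0.335 TPM or less in every library.

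Between the times, the class II members were lower at 8 weeks than at 6 weeks in the control ganglia, a difference that passed for each of them only before correction for multiple testing. In this comparison 32 members were tested and edgeR called 0 of them, against 0.153% of 16346 genes. At an unadjusted p under 0.05 there were 14 of 32 members, 14 of them lower at 8 weeks, against 31.2% of all genes and 17.4% lower. They were 11 of 11 class II members and 3 of 21 class I members. The median log2 difference, 8 over 6 weeks, was -1.26 over class II (11 of 11 below 0) and -0.54 over class I (17 of 21 below 0), beside -0.06 over all genes, of which 53.5% were below 0. Different rats were sampled at the 2 times, so time and animal cannot be told apart.

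The lowest adjusted p values, all by edgeR, belonged to the invariant chain and the main class II chains. Cd74 differed by -1.34 (SE 0.32, adjusted p = 0.0888), RT1-Ba by -1.53 (SE 0.38, adjusted p = 0.0951) and RT1-Db1 by -1.52 (SE 0.38, adjusted p = 0.0953). RT1-DMa was at -1.19, RT1-DOa at -1.26, RT1-Da at -1.33, RT1-Bb at -1.40 and RT1-Db2 at -0.80, with adjusted p values of 0.103 to 0.117 by edgeR. RT1-DOb, RT1-DMb and Ciita were at -1.08, -0.97 and -0.84. The 3 class I members were RT1-N3 (-1.03), RT1-T24-3 (-0.81) and Tap2 (-0.76). In the TPM of the control libraries, every 8-week value was below every 6-week value for Cd74, RT1-Ba, RT1-Db1 and RT1-DOa, 4 of 11 class II members, against 2.53% of the genes tested. Every 8-week value was above every 6-week value for RT1-M3-1, RT1-O1 and Tapbp, 3 of 21 class I members, against 36.2% of the genes.

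**Figure D3:**
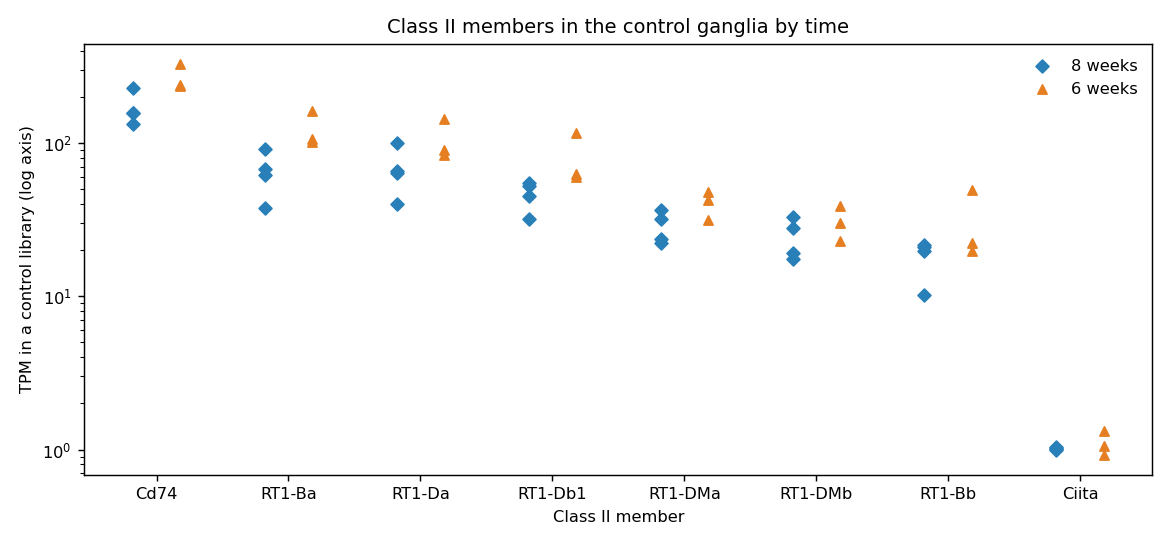
TPM (log axis) of Cd74, Ciita and the 6 most abundant class II RT1 chains in each control library, at 8 weeks (blue diamonds, 4 rats) and 6 weeks (orange triangles, 3 rats). The 8-week points lie below all 6-week points for Cd74, RT1-Ba and RT1-Db1 and overlap them for the others, and rat B is the highest 6-week point in each column.

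The call depended on the method, and the size on the scale. DESeq2 called 9 of 32 members (8 class II and RT1-N3), but it also called 3096 genes, 18.9% of those tested. Without rat E, edgeR called 16 of 33 members, 11 of them class II, and 6388 genes, 38.3%. Without rat B it called 0 members, and the medians were -0.73 for class II and -0.20 for class I. On log2(TPM + 1), limma gave medians of -0.50 for class II and 0.12 for class I. The median of all genes was 0.417 higher at 8 weeks than at 6 weeks in log2 TPM of the control libraries, so that the class II members lie below the other genes on both scales.

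Markers of several cell types lay lower at 8 weeks in the same control ganglia, those of blood-derived cells among them. Of 15 macrophage markers 15 were below 0, with a median of -1.34 and sums of 866 to 2242 TPM at 8 weeks, against 1206 to 3837 TPM at 6 weeks; Lyz2 made up most of the sum, and none of the 15 was at 0 counts in any library. All 8 B cell markers were below 0 (median -1.27), with sums of 44.1 to 110.0 TPM at 8 weeks, against 50.5 to 158 TPM at 6 weeks. The 11 T and NK cell markers tested had a median of -1.23, and the 7 dendritic cell markers tested a median of -0.91 with 5 below 0. Lists of other cell types lay lower too, with 8 of 8 myelinating Schwann cell markers (median -0.97), 8 of 8 fibroblast markers (median -0.92), 7 of 7 endothelial markers (median -0.39) and 5 of 5 red blood cell markers (median -1.59) below 0. The 15 sensory neuron markers were all above 0, with a median of 0.74 and sums of 13689 to 26303 TPM at 8 weeks, against 2894 to 18291 TPM at 6 weeks. So were the 10 skeletal muscle markers tested (median 4.46). Their sums were 181 to 5192 TPM at 8 weeks, the highest in rat H, against 68.2 to 222 TPM at 6 weeks. Cd209a and Batf3 of the dendritic cell list and Klrb1 of the T and NK cell list were listed at 0 in some libraries. No gene of these lists passed the adjusted threshold, and their part in the class II values was not tested. Among the genes around the pathway, class I loading (median -0.52, 10 of 12 below 0), class II processing (-0.35, 10 of 13) and co-stimulation (-1.55, 3 of 4) also had 0 called by edgeR.

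In the surgical ganglia the class II members lay in the same direction with smaller values. The test called 0 of 32 members, against 0% of 16606 genes, and 0 at an unadjusted p under 0.05, against 6.56% of genes; DESeq2 called 8 genes and 0 members. The median, 8 over 6 weeks, was -0.58 over class II (11 of 11 below 0), with RT1-Ba at -0.89 (SE 0.48), and -0.18 over class I, beside 0.01 over all genes, of which 49.5% were below 0. Without rats A and B the medians were -0.03 and 0.30. Of the macrophage markers 14 of 15 were below 0 here (median -0.77), of the T and NK cell markers 11 of 11 (median -0.89), of the myelinating Schwann cell markers 8 of 8 (median -1.03) and of the fibroblast markers 6 of 8 (median -1.11). The spinal cord list had a median of -6.05, with the surgical library of rat B on the 6-week side, and the 15 sensory neuron markers were above 0 (median 0.88). The 10 skeletal muscle markers tested were above 0 as well (median 3.97), with the surgical library of rat C on the 8-week side. The part of these lists in the class II values was not tested. For 0 class II members was every 8-week value below every 6-week value in TPM, against 2.08% of genes, and only RT1-M3-1 and Tapbp lay above, against 7.18%.

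Between rats, some class I rows differed in the share of the counts they held, and in several of these both sides of rats A and D lay apart from all other libraries. The 23 class I RT1 rows were therefore described by their share of the summed class I RT1 counts in a library. The row ENSRNOG00000065254 of RT1-CE16 held 12.6% (surgical) and 13.2% (control) of these counts in rat A and 13.5% (surgical) and 13.9% (control) in rat D. In the other 5 rats it held 32.0% to 40.6% in the surgical and 32.1% to 42.8% in the control libraries. The widest 95% Wilson interval of this row reached 1.11 percentage points to either side, which covers counting error only.

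RT1-A2 and RT1-CE14 had their largest shares where that row had its smallest. Shares of one total are tied to each other, so a smaller share of the RT1-CE16 row by itself raises the shares of the other rows. RT1-A2 held 12.8% (surgical) and 14.4% (control) in rat A and 12.3% (surgical) and 13.1% (control) in rat D, against 3.29% (surgical) and 4.47% (control) in rat C. In rats B, E, G and H it held 5.41% to 7.91% in the surgical and 6.87% to 7.23% in the control libraries. RT1-CE14 held 7.45% (surgical) and 7.44% (control) in rat A, and 7.60% (surgical) and 7.54% (control) in rat D. Its share was 3.68% (surgical) and 3.25% (control) in rat B and 3.16% (surgical) and 2.94% (control) in rat C, and 4.65% to 5.11% (surgical) and 4.90% to 4.98% (control) in rats E, G and H. RT1-A1 was largest in rat D, with 22.01% (surgical) and 22.1% (control), and next in rat A, with 16.8% (surgical) and 17.5% (control). In TPM the rats were less apart for these last rows. RT1-CE14 was at 4.52 to 5.83 TPM in the libraries of rats A and D, against 2.48 to 4.56 TPM elsewhere. RT1-A1 was at 15.2 to 25.1 TPM in rats A and D, against 10.2 to 28.8 TPM elsewhere. Shares of RT1-N2, RT1-N3 and the second RT1-CE16 row (ENSRNOG00000047706) were also larger in both libraries of rats A and D than in all others. RT1-N2 held 1.33% or more there, against at most 1.14% elsewhere. The margins were narrow for RT1-N3 (2.45% or more, against at most 2.43%) and the second RT1-CE16 row (6.32% or more, against at most 6.27%).

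In the RT1-CE16 row (ENSRNOG00000065254), RT1-A2, RT1-A1 and RT1-CE14 the sides of a rat differed by much less than the rats did. For RT1-CE14 the mean difference between the sides was 0.162 percentage points and the rat means spanned 4.52 points. For the RT1-CE16 row these were 2.00 and 28.8 points, for RT1-A2 0.861 and 9.71 points, and for RT1-A1 1.02 and 11.6 points. The widest gap between the sides in these 4 rows was 5.50 points, for the RT1-CE16 row in rat G. A span of several rat means tends to exceed a mean difference between sides even where rats do not differ. A modest gap between these measures is therefore no sign of a difference between rats. Other rows of either class showed a smaller gap between these measures. For RT1-T24-3 they were 1.11 and 5.46 points, a gap close to that of RT1-CE14, and for the second RT1-CE16 row (ENSRNOG00000047706) 0.396 and 2.27 points. For RT1-M3-1 they were 1.30 and 2.47 points and for RT1-CE3 0.123 and 0.319 points. Among shares of the summed class II RT1 counts, they were 2.25 and 5.83 points for RT1-Ba and 1.95 and 4.64 points for RT1-Bb. For RT1-Da the mean difference between the sides was 3.36 points and the rat means spanned 4.08 points, and for RT1-DMb these were 4.43 and 3.85 points.

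**Figure D4:**
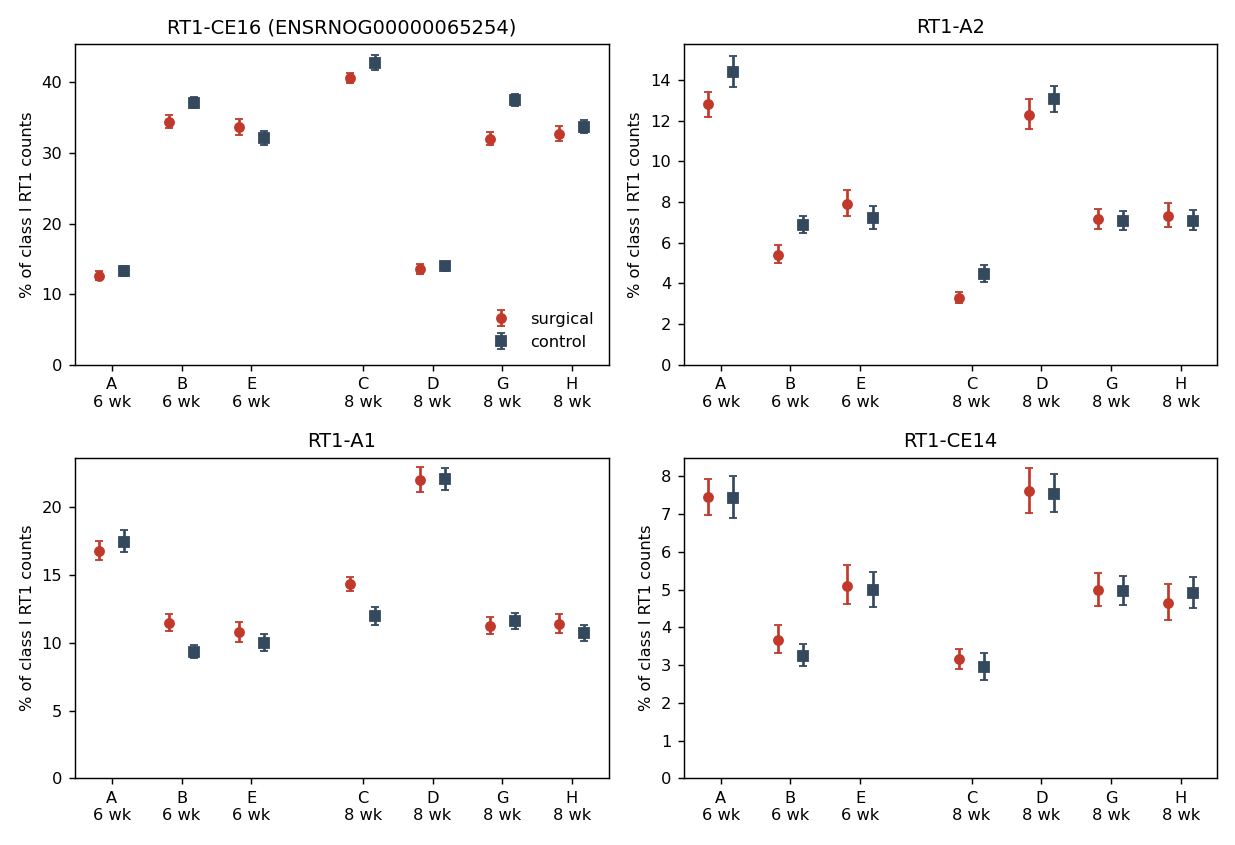
Share of the summed class I RT1 counts held by 4 class I rows in each library, with 95% Wilson intervals (counting error only), surgical as red circles and control as dark squares; the axes start at 0 with different tops. In each panel both libraries of rats A and D lie apart from those of the other rats, low for the RT1-CE16 row (12.6% to 13.9%) and high for RT1-A2 (12.3% to 14.4%), RT1-A1 and RT1-CE14. The sides differ most for the RT1-CE16 row in rat G (32.0% surgical, 37.5% control).

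The second RT1-CE15 row (ENSRNOG00000048951) was close to a rat-specific row. It had 30 counts in the surgical and 23 counts in the control library of rat D, and at most 7 counts in each of the other 12 libraries. This row did not pass the filter and was tested only in the alternative with no filter, which called 0 of 40 members in each comparison.

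A test of differences among the 7 rats, with the side in the model, set these rows against all genes; the rats also differ in time. It called 0 of 32 members, against 0.0806% of 16135 genes, and at an unadjusted p under 0.05 there were 3 members, against 15.7% of genes. The 3 were all class I: the RT1-CE16 row (ENSRNOG00000065254; adjusted p = 0.256 by edgeR), RT1-A2 (adjusted p = 0.278 by edgeR) and RT1-CE15 (ENSRNOG00000065311; adjusted p = 0.312 by edgeR). DESeq2 called 5 members (these 3, RT1-Ba and RT1-DMa) and 20.1% of genes. Without rats B, C and H, edgeR called 16 of 33 members and 18.1% of genes.

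The spread between rats, as the SD of the rat means in log2 CPM, was set against the spread between the sides within a rat. The ratio was 2.12 for the RT1-CE16 row, 1.69 for RT1-CE15 (ENSRNOG00000065311), 1.59 for RT1-A2, 1.38 for RT1-M3-1, 1.29 for RT1-M6-2, 1.13 for RT1-A1, 1.11 for RT1-N2 and 1.10 for B2m. These 8 highest rows were class I. The median ratio was 0.97 over the 22 class I and 0.83 over the 11 class II members, beside 1.01 over all 17035 genes, so that most members of either class varied between rats about as other genes did. Reads of an RT1 allele that the reference lacks could be counted on a neighbouring row or lost, and whether the rats carried different alleles was not tested.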

How the data were processed

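RNA was sequenced from 14 ganglion libraries of 7 rats, a pair of sides from each. Group, rat and time came from the sample titles. The letters C and D are exchanged between titles and library names on both sides, which keeps the pairs intact; title letters were used. The surgical library of rat C is titled replicate 1 and was used as 2. The labels name polyA RNA as the molecule but ribosomal depletion in the library protocol.

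Estimated counts and TPM for each gene are the authors' deposited values. FastQC, Trim Galore, Salmon and DESeq2 were used, per the submitters' processing notes; versions, genome build and annotation are not given in the sources used here. The deposited estimated counts were whole (0 non-whole values).

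Counts were tested with edgeR 4.0.16 (R 4.3.3): filterByExpr with a minimum count of 10, TMM scaling, robust quasi-likelihood fits, two-sided tests, Benjamini-Hochberg adjustment over all genes tested and a threshold of 0.05. Side comparisons were fitted on all 14 libraries with the rat as a block; time comparisons used the 7 libraries of a side; differences among rats were tested jointly with the side in the model. The SE is the log2 difference divided by the square root of F. Log2 CPM used TMM scaling and a prior count of 2. The models were tested on simulated data with 100 genes changed 2-fold and 100 changed 4-fold. For the sides over both times, 37% of the 2-fold and 83% of the 4-fold changes were recovered. For time in the control ganglia these were 8% and 72%, and for differences among rats 0% and 43%. A result of 0 members called therefore does not exclude changes of these sizes. Both sides of a rat come from the same animal, which gives the pairing; the deviations of the sides of a rat from their group means correlated at 0.26, -0.12, -0.41, -0.08, 0.75, 0.13 and -0.31 across 17035 genes in rats A, B, C, D, E, G and H. P-values of the time comparisons rest on the spread between rats. Those of the side comparisons rest on the spread of the side difference between rats. Those of the test among rats rest on the spread between the sides within a rat.

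Class II rows were the RT1 rows whose next letter is B, D or H, with Cd74 and Ciita; the others were class I. Values in every library are given for the 6 members that are not RT1 rows and for the 6 RT1 rows of each class with the highest mean TPM; for differences among rats, the 8 rows with the largest ratio of spread between to within rats. The members, lists and tests were chosen with earlier results of these data known. The alternatives tried were edgeR with DESeq2 size factors, DESeq2 1.42.0 itself, no filter, a stricter filter at 1 CPM, no robust fit, limma 3.58.1 on log2(TPM + 1) or log2(TPM + 0.1) for genes averaging at least 0.5 TPM, removal of a lowess trend (span 0.3) with transcript length, no block, only the libraries of 1 time, all libraries as 4 groups, each rat left out, and rats B, C and H or A and B left out. Intervals of shares are 95% Wilson intervals. Promoters came from RefSeq, GRCr8, matched by symbol.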

Additional observations from a re-analysis of the deposited data

Results flagged for a closer look

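Outlying libraries were looked for in the 8-week groups, which have 4 libraries each, in 40 group values, and 6 stood apart from the other 3 libraries by Dixon's criterion for 4 values. Chance gives about 1 in 20 for independent values. The 40 values are not independent, since many come from the same library, so the 6 are not separate outliers. The surgical library of rat C was the highest of its group in 5 of them. It had 34.8 TPM of Tapbp, against 22.1 to 22.7 TPM in the other 8-week surgical libraries. Tap2 was at 27.4 TPM there, against 12.0 to 13.1 TPM. RT1-Ba was at 71.7 TPM, against 49.2 to 50.8 TPM, and RT1-Bb at 36.7 TPM, against 11.9 to 14.2 TPM. The summed class I RT1 rows were at 286 TPM, against 173 to 189.6 TPM. The control library of rat D was the lowest of its group for RT1-Bb, with 10.2 TPM, against 19.8 to 21.5 TPM in the other 8-week control libraries.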

How the results depend on the processing

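No member was called in the comparisons of the sides or in the surgical time comparison under any alternative that was run, the fits with no replicate block included (0 members in each). Those fits called 2 genes for the sides at 6 weeks, against 0 with the block, and 0 in the other side comparisons. With all 14 libraries as 4 groups and no replicate block, the control time comparison called 70 genes, against 25, and 0 members. Calls appeared in 2 comparisons. For 8 against 6 weeks in control ganglia, 9 members were called by DESeq2 (3096 genes, against 25 by edgeR) and 0 to 16 with 1 rat left out (16 without rat E, with 6388 genes, and 0 without any other rat). For differences among rats, 5 were called by DESeq2 (3249 genes, against 13) and 16 without rats B, C and H (2930 genes). DESeq2 called 6, 44, 4 and 5 genes for the sides over both times, at 6 weeks, at 8 weeks and for their difference, and 8 in the surgical time comparison, against 0 by edgeR in each. In control ganglia, the class II time median of -1.26 became -0.50 and -0.51 on log2(TPM + 1) and log2(TPM + 0.1), -0.51 without rats A and B and -1.43 to -0.73 with 1 rat left out. The class I median of -0.54 became 0.12, 0.13, 0.11 and -0.71 to -0.20 under the same alternatives, and the surgical class I median 0.30 without rats A and B. Single log2 side differences over both times changed sign when 1 rat was left out. The ranges were -0.070 to 0.26 for RT1-T24-3, -0.16 to 0.18 for RT1-T24-4, -0.14 to 0.17 for RT1-S3, -0.27 to 0.043 for RT1-CE16 (ENSRNOG00000065254), -0.11 to 0.11 for Tapbp and -0.26 to 0.026 for RT1-A2. They were -0.20 to 0.19 for Tap2, -0.16 to 0.25 for Tap1, -0.41 to 0.053 for RT1-Da, -0.49 to 0.053 for RT1-Db1, -0.28 to 0.068 for RT1-DMa, -0.26 to 0.22 for RT1-DMb and -0.45 to 0.11 for RT1-Bb. Without rats B, C and H, Tapbp was at -0.064, Tap2 at -0.00285, RT1-Da at 0.20, RT1-Db1 at 0.071, RT1-DMa at 0.061 and RT1-Bb at 0.067. RT1-DMa was at 0.032 without rats A and B and at 0.024 with the length trend removed. The cause of these changes was not tested. The filter on low counts left out 7 rows; with no filter all 40 members were tested and 0 were called in each comparison.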
